A study of Mus musculus with 2756 samples.

Results

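The genes described here are the Wnt ligands, receptors and modulators of the embryonic mouse neocortex. They comprise every gene of the count table whose symbol begins with Wnt, Fzd, Sfrp, Dkk, Nkd, Axin, Tcf7, Dvl or Rspo, together with Lef1, Lrp5, Lrp6, Ctnnb1 and Apc. They numbered 36 of 16441 genes and were chosen by symbol and by no measured value, but with earlier results of these data known. The 36 were 5 ligands (Wnt4, Wnt5a, Wnt5b, Wnt7a, Wnt7b), 1 secreted agonist (Rspo3), 7 secreted antagonists (Dkk1, Dkk2, Dkk3, Sfrp1, Sfrp2, Sfrp4, Sfrp5), 10 receptors (Fzd1, Fzd2, Fzd3, Fzd5, Fzd6, Fzd7, Fzd8, Fzd9, Lrp5, Lrp6), 5 Dishevelled and Naked genes (Dvl1, Dvl2, Dvl3, Nkd1, Nkd2), 4 genes of beta-catenin and its destruction complex (Ctnnb1, Apc, Axin1, Axin2) and 4 nuclear factors (Lef1, Tcf7, Tcf7l1, Tcf7l2). The other 14 of 19 Wnt ligand genes, among them those of the cortical hem, were not analysed here.

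Wnt ligands are secreted, lipid-modified proteins that bind Frizzled receptors with the co-receptors Lrp5 and Lrp6. Ligand binding acts through Dishevelled to stop the destruction complex, in which Apc and Axin hold beta-catenin for degradation, and the beta-catenin that accumulates joins TCF and LEF factors on DNA. Sfrp and Dkk proteins hold back the pathway outside the cell, R-spondins strengthen it, and Axin2, Nkd1 and Lef1 are known as targets that are induced by it. In the developing cortex the canonical branch is known to keep radial progenitors dividing and to pattern the tissue along its medial to lateral axis, and other branches act on polarity, migration and axon growth.

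Cells of the putative primary somatosensory cortex were labelled in mouse embryos with FlashTag, a dye that enters cells dividing at the ventricular surface, and the brightest labelled cells were sorted and sequenced one by one. Labelling took place on 1 of 4 days of gestation, embryonic day 12 (E12), 13, 14 or 15, and collection followed after 1, 24 or 96 h, which made 12 conditions. The 15 clusters of the authors were read by the first part of their names as apical progenitors (AP), basal progenitors (BP), neurons of the first day (N1d), neurons of the fourth day (N4d), interneurons (IN) and astrocytes (Astro). Counts were summed over the cells of 1 class, 1 injection day and 1 collection time, and levels are given as counts per M counts of the sum (CPM). The sums used were N1d at 24 h (633 cells over the 4 days), N4d at 96 h (693 cells), IN at 96 h (30 to 85 cells a day), BP at 24 h (35 to 78 cells a day, without the 8 cells of E14), AP at 1 h (715 cells) and AP at 24 h (14 to 44 cells a day). Every embryo had received FlashTag, and the labels named no strain, genotype, animal or treatment of the pathway.

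The sums compared across collection times held 40.4 to 80.0 M counts, those within 24 h 5.27 to 67.01 M and those within 96 h 7.79 to 80.0 M. No cell code was shared by 2 cells and no 2 cells had identical counts. The class names were set against marker lists. Summed over 6 markers, young neuron genes were at 5489 to 7236 CPM in N1d at 24 h and at 142.8 to 297.7 CPM in AP at 1 h, and 8 progenitor markers were at 494 to 1106 CPM in N1d and at 2439 to 6436 CPM in AP. Interneuron markers were at 1895 to 2711 CPM in IN and at 104.5 to 254.7 CPM in N4d at 96 h. Of 6 markers of Cajal-Retzius cells, early-born neurons of the outermost layer, 4 were in the table (Reln, Lhx5, Nhlh2, Calb2), and Calb2 and Reln are also known in interneurons. Their sum was at 40.8 to 110.6 CPM in N1d at 24 h and at 0.375 to 2.76 CPM in AP at 1 h and 0.569 to 13.3 CPM in AP at 24 h, and at 5.74 to 301.4 CPM in IN and 6.09 to 30.5 CPM in N4d at 96 h. Its part in the N1d and IN values was not tested. Only 1 of 7 markers of cortical hem and choroid plexus, which are local sources of Wnt ligands, was in the table analysed, so the presence of those cells could not be checked. Each of the 6 run codes in the cell names held 1 collection time, so a change across times cannot be told apart from a change of run. Comparisons within 24 h or within 96 h do not have that limit.

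Promoter windows are shown for 4 members whose levels differed between classes or that are textbook feedback targets, as an aid to reading the pathway. The TCF and LEF core letters CTTTGA, or TCAAAG on the other strand, were searched in the 250 bases before each start in the RefSeq promoters of build GRCm38.p6, of which 22 of the 36 members had at least 1 and 30 in all. The letters occurred in 4 of these 30 windows (13.3%) and in 13.8% of all 32851 windows of the same length. The windows that held them were 1 each of Lef1, Fzd1, Wnt5b and Dkk1, and 3 further starts of Lef1 did not. Windows are printed from 5′ to 3′ on the strand of the gene, with the searched letters in capitals. The Lef1 window (chr3:131156044-131156293, + strand), before a start inside the gene, held them 2 times, that of Fzd1 (chr5:4758217-4758466, - strand) 1 time, and those of Axin2 (chr11:108920099-108920348, + strand) and Nkd1 (chr8:88527383-88527632, + strand) did not hold them. The Nkd1 window, like that of Lef1, lies inside the annotated gene, which begins at 88521354, so it is not the window before the first base of the gene.
Lef1: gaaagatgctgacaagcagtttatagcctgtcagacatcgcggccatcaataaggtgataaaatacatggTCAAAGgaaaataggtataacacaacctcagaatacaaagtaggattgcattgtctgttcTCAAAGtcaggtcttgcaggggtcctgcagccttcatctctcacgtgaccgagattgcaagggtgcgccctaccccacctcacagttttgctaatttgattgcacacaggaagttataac
Fzd1: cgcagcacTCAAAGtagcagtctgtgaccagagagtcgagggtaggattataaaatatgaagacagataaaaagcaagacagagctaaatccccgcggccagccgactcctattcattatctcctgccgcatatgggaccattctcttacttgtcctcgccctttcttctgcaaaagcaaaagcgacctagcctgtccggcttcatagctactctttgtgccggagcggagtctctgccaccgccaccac
Axin2: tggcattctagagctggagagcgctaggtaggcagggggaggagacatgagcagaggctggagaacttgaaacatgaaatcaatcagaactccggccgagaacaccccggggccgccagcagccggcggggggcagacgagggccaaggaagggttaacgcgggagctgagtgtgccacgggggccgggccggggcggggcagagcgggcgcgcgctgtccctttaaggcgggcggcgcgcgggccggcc
Nkd1: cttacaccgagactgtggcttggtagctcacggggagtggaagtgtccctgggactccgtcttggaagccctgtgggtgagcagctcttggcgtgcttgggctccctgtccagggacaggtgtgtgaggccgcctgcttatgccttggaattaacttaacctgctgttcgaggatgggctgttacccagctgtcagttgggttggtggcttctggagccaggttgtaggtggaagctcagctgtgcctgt
A match of these letters is a description of the window and not a site of binding.

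Of the 36 members, 24 reached 10 CPM in at least 3 of the 12 sums and were tested across collection times, and the other 12 (Wnt4, Wnt5a, Wnt5b, Tcf7, Fzd5, Fzd6, Fzd7, Lrp5, Dkk1, Dkk2, Sfrp4 and Sfrp5) did not. The first comparison asked how the pathway genes differ between newborn neurons and the progenitors they come from. In N1d at 24 h over AP at 1 h, 3 tested members were higher (Wnt7b, Rspo3, Apc) and 5 lower (Sfrp1, Wnt7a, Tcf7l1, Fzd8, Dkk3), against 17.3% of all 10195 genes tested that were higher and 16.5% that were lower. The share of members called, 33.3%, was close to that of all genes, and Tcf7l1 passed the filter through its AP sums alone. From N1d at 24 h to N4d at 96 h, 3 members rose (Apc, Dkk3, Nkd2) and 9 fell (Fzd1, Fzd2, Fzd8, Nkd1, Lef1, Tcf7l1, Tcf7l2, Ctnnb1, Sfrp1), against 10.4% and 10.2% of all genes. Among them, Nkd1 passed the filter only with its N1d sums, and Dkk3 and Nkd2 only with their N4d sums. The median log2 change of the 24 was -0.32 and -0.55 in these comparisons, beside -0.02 and -0.03 over all genes. Within the 24 h samples, where N1d and AP cells came from the same runs, 3 of 24 tested members were higher in N1d (Wnt7b, Nkd1, Apc) and 3 lower (Sfrp1, Fzd8, Wnt7a), against 7.08% and 7.58% of 9861 genes. There the median log2 change of the 24 tested had the other sign, at 0.20, beside 0.09 over all genes.

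**Figure D1:**
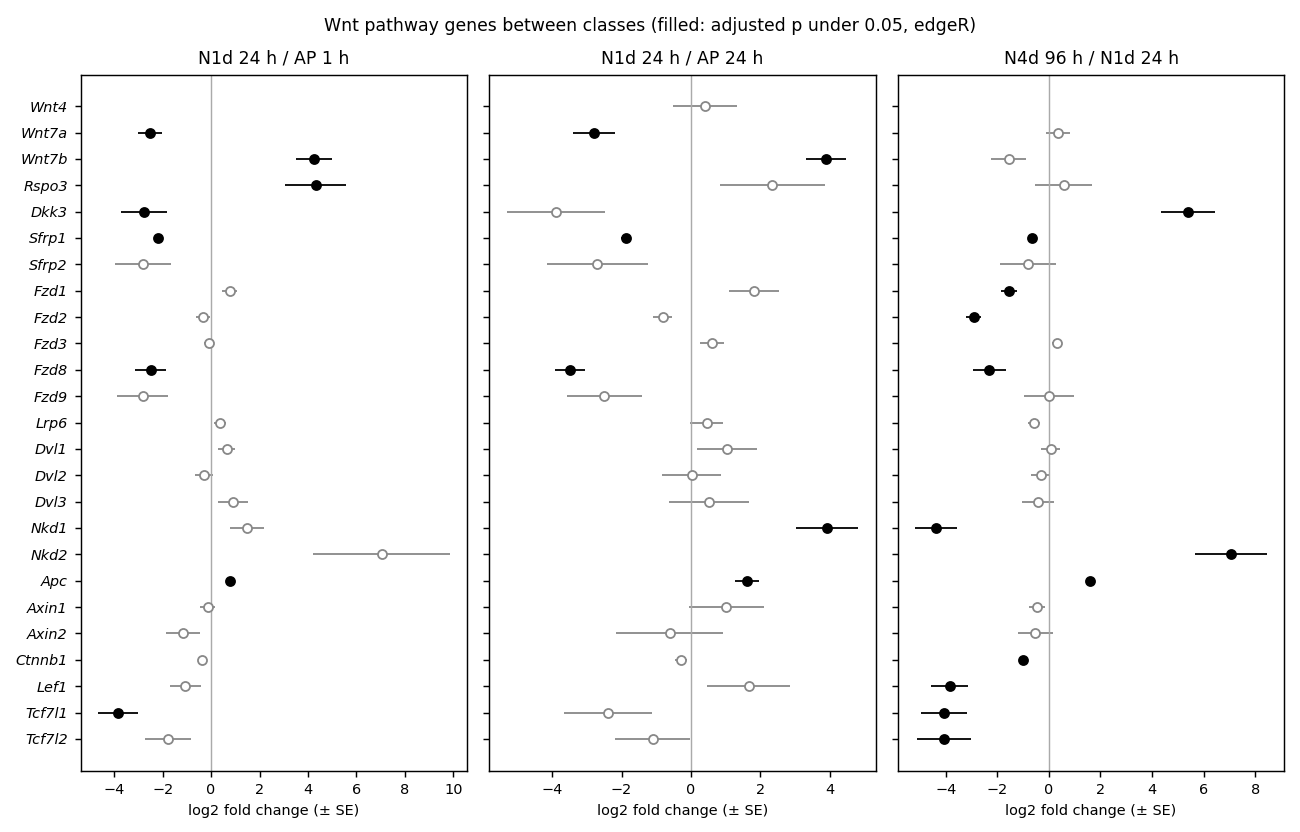
Log2 fold change with its standard error for each tested member in 3 comparisons, with members down the page by role and filled points for an edgeR adjusted p under 0.05. Wnt7b lies to the right and Sfrp1, Wnt7a and Fzd8 to the left in both comparisons of N1d with AP, and the AP sums of Nkd2 were at 0 on 3 of 4 days, so its value in the left panel is no measure of size.

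Among the ligands, Wnt7b and Wnt7a went opposite ways between progenitors and newborn neurons. Both encode ligands that are abundant in the forebrain and are known to act on its vessels as well as on neural cells. Wnt7b was at 231.4, 270.6, 160.9 and 137.99 CPM in N1d at 24 h for E12 to E15, and at 27.4, 1.99, 2.95 and 11.5 CPM in AP at 1 h. The AP sums of 24 h gave 30.7, 3.46, 8.61 and 16.4 CPM. N1d lay above AP on every day and at both times, with no overlap. The log2 change was 4.24 ± 0.76 (SE, n = 4 days a class, edgeR adjusted p 0.00125) over AP at 1 h and 3.89 ± 0.58 (edgeR adjusted p 0.00211) over AP of the same runs at 24 h. Reads of Wnt7b were found in 81.4% of N1d cells and in 49.1% of AP cells at 24 h, or 68.9% and 27.0% with every cell thinned to 100000 counts. Without the AP sum of E12 at 1 h, the first change was 6.14, and without that of E15 it was 5.69. In N4d at 96 h Wnt7b was at 103.04, 37.6, 28.6 and 92.3 CPM, and the log2 change from N1d of -1.57 ± 0.68 did not pass (edgeR adjusted p 0.123). The small cluster N4d.early1, of 31 cells, stood at 356 CPM, and the other N4d clusters at 33.6 to 82.8 CPM.

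Wnt7a was at 9.90, 3.39, 5.91 and 12.6 CPM in N1d at 24 h, and at 42.6, 52.1, 38.6 and 44.8 CPM in AP at 1 h. Every AP value lay above every N1d value. It fell by 2.52 ± 0.49 on the log2 scale (edgeR adjusted p 0.00217), and the change was -3.31 without the N1d sum of E12. Over AP at 24 h, where the 4 days were at 45.1, 74.01, 15.9 and 125.7 CPM, the log2 change was -2.80 ± 0.61 (edgeR adjusted p 0.0137). That call was lost without the AP sum of E15 (edgeR adjusted p 0.0578) and without the N1d sum of E15 (0.0624), and with limma on the mean of cell CPM (limma adjusted p 0.109). In N1d a single cell gave 49.01% to 91.04% of the Wnt7a reads of each day, and 8.85% of N1d cells had a read against 33.1% of AP cells at 1 h, or 3.11% and 25.2% after thinning. With the AP, BP, N1d and N4d classes pooled at each time, Wnt7a, Apc and Rspo3 no longer passed in N1d over AP at 1 h (log2 changes -1.10, 0.40 and 2.50, edgeR adjusted p 0.0607, 0.101 and 0.117). With the same pooling Wnt7b (2.76), Fzd8 (-1.04), Tcf7l1 (-2.75) and Sfrp1 (-1.52) passed with smaller changes than those of the classes. Wnt7a in N4d at 96 h was at 29.5, 8.27, 11.1 and 2.60 CPM, and its change from N1d did not pass (log2 change 0.33 ± 0.46, edgeR adjusted p 0.653).

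Rspo3, an R-spondin that strengthens the response to Wnt ligands, was found in neurons. It was at 42.8, 43.1, 22.1 and 5.37 CPM in N1d at 24 h for E12 to E15 and at 4.50, 0, 0 and 1.15 CPM in AP at 1 h. All 4 N1d sums lay above all 4 AP sums. The log2 change was 4.33 ± 1.26 (edgeR adjusted p 0.0205), and its size rests on AP sums near 0, since the fitted value was 14.9 without the AP sum of E12 and 16.9 without that of E15. Within 24 h, where AP was at 0, 19.5, 1.64 and 1.64 CPM, the change of 2.33 ± 1.51 did not pass (edgeR adjusted p 0.359). A single cell gave 93.9% to 100% of the Rspo3 reads of each AP sum of 24 h that held any, and 15.0% to 56.7% of those of an N1d sum. N4d at 96 h held 92.1, 57.1, 29.4 and 7.90 CPM, higher than N1d on each day, and the difference did not pass (0.57 ± 1.10, edgeR adjusted p 0.754). Reads were in 24.7% of N4d cells and 14.4% of N1d cells, or 18.4% and 10.7% after thinning. The Rspo3 locus (GRCm38, chromosome 10, 29452416 to 29535867, - strand) overlaps 2 other annotated genes, and 21 of the 36 members overlap at least 1. The counting was not stated to use strand, so reads of such partners cannot be told apart.

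The other 3 ligands did not pass the filter across collection times. Wnt4 had reads in 63.1% of AP cells at 1 h, 59.6% of N1d cells and 47.2% of N4d cells (36.0%, 38.4% and 22.8% after thinning), with a median of 2 reads in the AP cells that had any, and its sums were at 4.76 to 7.69, 2.06 to 17.3 and 2.41 to 4.19 CPM in these classes. At 24 h, where it passed the filter, its change in N1d over AP was 0.39 ± 0.92 (edgeR adjusted p 0.828). Wnt5b, a ligand of the non-canonical branch, reached 19.9 CPM in AP of E12 at 1 h and 24.5 CPM in AP of E14 at 24 h, and lay at 0.0336 to 10.4 CPM in N1d and N4d. Wnt5a, of the same branch, had its highest sum in interneurons and is given with them.

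**Figure D2:**
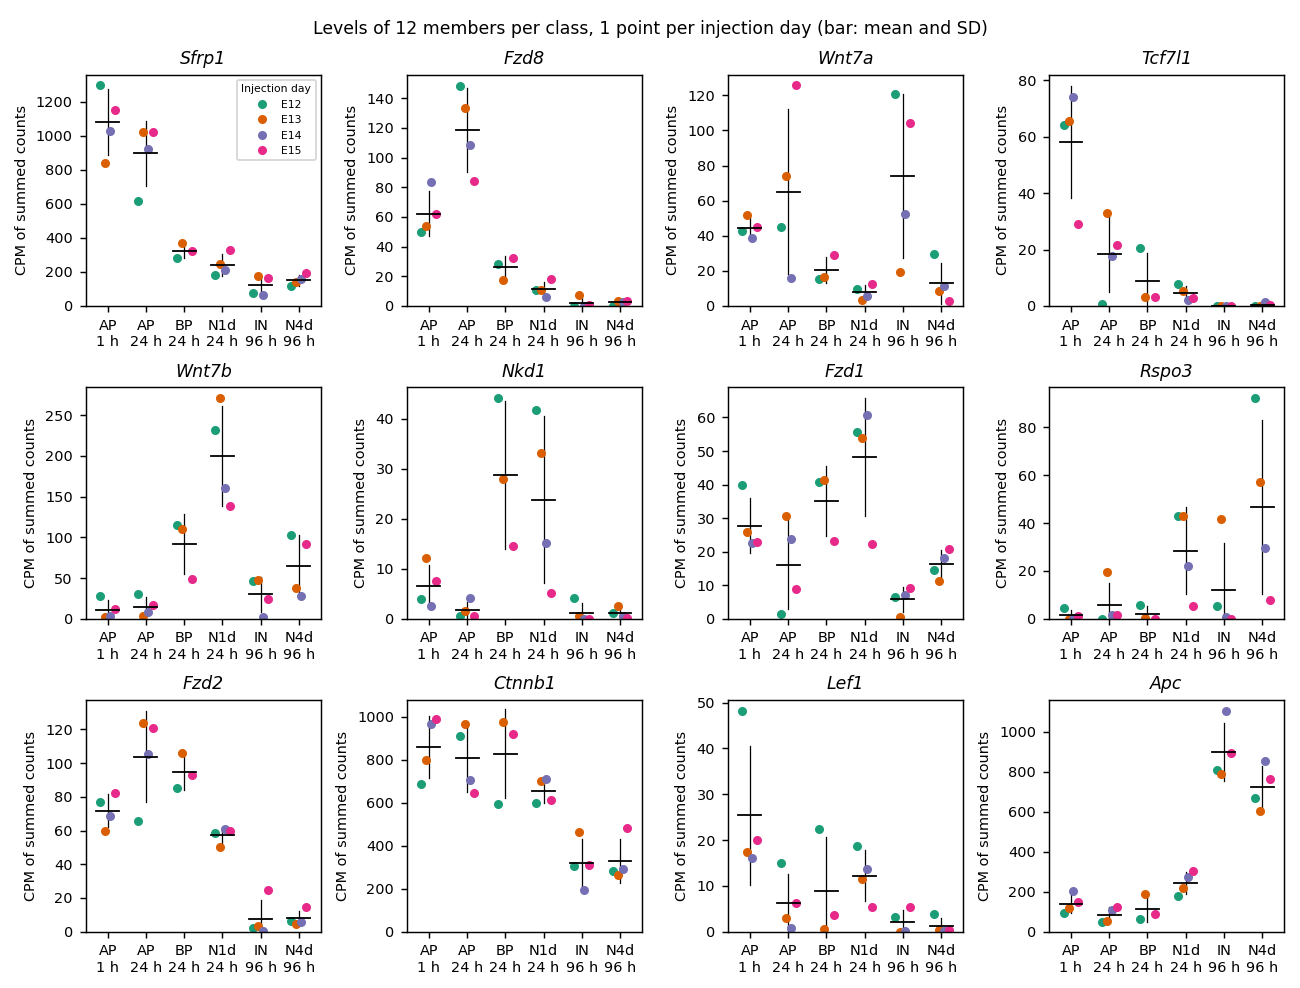
CPM of summed counts of 12 members in 6 classes, with 1 point per injection day, a horizontal line at the mean and a vertical line of 1 SD, cut at 0. Sfrp1, Fzd8, Wnt7a and Tcf7l1 are highest in AP sums among AP, BP, N1d and N4d, Wnt7b is highest in N1d, and Apc in IN and N4d.

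The secreted antagonists were led by Sfrp1, a Frizzled-related protein that binds Wnt ligands outside the cell. Per kb of exon it averaged 246.9 CPM in AP at 1 h, against 165.9 CPM per kb for Ctnnb1 and 19.6 CPM per kb for Fzd2, the next most abundant members. Sfrp1 was at 180, 245.5, 212.6 and 330 CPM in N1d at 24 h for E12 to E15 and at 1299, 840, 1026 and 1151 CPM in AP at 1 h. The N1d sums lay far below all AP sums. It fell by 2.20 ± 0.16 on the log2 scale (edgeR adjusted p 2.12e-06), and by 1.88 ± 0.15 over the AP sums of 24 h (edgeR adjusted p 7.40e-05), which were at 618, 1023, 925 and 1022 CPM. N4d at 96 h had 118.9, 137.9, 157.005 and 194.2 CPM, a further log2 change of -0.65 ± 0.15 (edgeR adjusted p 0.0128) that did not pass without the N1d sum of E15 (0.0937) or without the N4d sum of E12 (0.0760). N4d of E15 lay above N1d of E12, so the 2 groups overlap.

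Dkk3, a member of the Dickkopf family whose action on Wnt signalling is less settled than that of Dkk1, was low in newborn neurons and present before and after. It was at 16.9, 51.1, 43.8 and 61.6 CPM in N4d at 96 h and at 0.0640, 0.789, 2.16 and 4.72 CPM in N1d at 24 h. Every N4d sum lay above every N1d sum, with a log2 change of 5.39 ± 1.05 (edgeR adjusted p 0.00516). It did not pass without the N1d sum of E15 (0.0543), without a day term (0.0504) or with the AP, BP, N1d and N4d classes pooled at each time (0.0581). Dkk3 passed the filter of 10 CPM across times only with its N4d sums, so that call is read as a description of levels. AP at 1 h had 0, 7.58, 10.2 and 46.99 CPM for E12 to E15. N1d over AP was called lower (-2.77 ± 0.94, edgeR adjusted p 0.0400), but the AP sum of E12 held no read and the groups overlap. That call was lost in 8 of 12 fits that each left out 1 sum: those without AP of E13 (-0.62, edgeR adjusted p 0.609), without any single N1d sum (0.0632 to 0.187), and without N4d of E13, E14 or E15 (0.0553 to 0.0589). The value was -3.40 without AP of E12 and -3.57 without AP of E15. The call was also lost with no filter on low counts, with a filter of 1 CPM and with no day term (edgeR adjusted p 0.0596 to 0.104), and the value was 0.24 (edgeR adjusted p 0.877) when the AP, BP, N1d and N4d classes were pooled at each time.

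Sfrp2, another Frizzled-related protein, was at 5.51, 0.0839, 0.433 and 17.7 CPM in N1d at 24 h and at 34.3, 33.8, 31.3 and 40.8 CPM in AP at 1 h. All N1d values lay below the AP values, and the log2 change of -2.82 ± 1.15 did not pass (edgeR adjusted p 0.0805). Sfrp4 was uneven, with 32.6 CPM in AP of E14 at 1 h, 52.1 CPM in AP of E13 at 24 h and at most 12.1 CPM in any N1d sum of 24 h or N4d sum of 96 h. Dkk1 stayed at or under 1.29 CPM and Dkk2 at or under 4.05 CPM in every sum of at least 10 cells of AP, BP, N1d, N4d and IN. Sfrp5 had no read in any AP, BP, N1d or IN sum among them and is given with the astrocytes.

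Among the receptors, only Fzd8 was called lower in N1d than in AP. It was at 10.5, 10.9, 5.79 and 17.9 CPM in N1d at 24 h and at 49.9, 53.7, 83.4 and 61.9 CPM in AP at 1 h. AP at 24 h was at 148.5, 133.1, 108.6 and 84.2 CPM. N1d did not overlap either set, and the log2 change was -2.49 ± 0.65 (edgeR adjusted p 0.0114) over AP at 1 h and -3.49 ± 0.43 (edgeR adjusted p 7.39e-04) over AP at 24 h. N4d at 96 h, at 0.125, 3.55, 2.87 and 3.64 CPM, was lower again by 2.31 ± 0.65 on the log2 scale (edgeR adjusted p 0.0272). This last call was lost without the N1d sum of E12, E13 or E15 (edgeR adjusted p 0.0886, 0.0518 and 0.152) and without the N4d sum of E14 or E15 (0.0756 and 0.213), and its value was -3.44 without N4d of E13, -1.67 without N4d of E12 and -3.13 with the AP, BP, N1d and N4d classes pooled at each time.

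Fzd2 and Fzd1 were lower in N4d than in N1d. Fzd2 was at 6.44, 4.81, 5.71 and 14.7 CPM in N4d at 96 h and at 58.3, 50.03, 60.7 and 59.5 CPM in N1d at 24 h. All N4d sums lay far under all N1d sums, with a log2 change of -2.92 ± 0.30 (edgeR adjusted p 1.11e-04). In AP at 1 h Fzd2 was at 76.7, 59.8, 68.6 and 82.02 CPM, and the change in N1d over AP did not pass (-0.34 ± 0.28, edgeR adjusted p 0.371). AP at 24 h was at 65.4, 123.6, 105.7 and 121.01 CPM, above every N1d sum, and that change did not pass either (-0.82 ± 0.27, edgeR adjusted p 0.0752). Fzd1 was at 14.5, 11.2, 18.3 and 20.9 CPM in N4d at 96 h and at 55.6, 54.02, 60.8 and 22.2 CPM in N1d at 24 h. The N4d values lay below the N1d values, with E15 close on both sides, and the log2 change was -1.54 ± 0.32 (edgeR adjusted p 0.00733). AP had 39.998, 25.9, 22.5 and 22.8 CPM of Fzd1 at 1 h and 1.52, 30.5, 23.8 and 8.83 CPM at 24 h. N1d was higher on 3 of 4 days at 1 h and on every day at 24 h, and neither change passed (0.77 ± 0.32, edgeR adjusted p 0.0818, and 1.81 ± 0.71, edgeR adjusted p 0.130). After thinning, reads of Fzd2 were in 62.4% of AP cells at 1 h, 65.8% of AP cells at 24 h, 42.6% of N1d cells and 7.41% of N4d cells (70.8%, 73.2%, 53.2% and 10.8% before). Reads of Fzd1 were in 26.2%, 20.7%, 30.6% and 10.2% of these cells (36.6%, 31.2%, 36.7% and 14.7% before).

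Fzd3, a receptor known for axon growth through the polarity branch, was at 82.3, 71.4, 79.8 and 84.8 CPM in the AP sums of 1 h, at 60.3, 74.96, 98.7 and 71.9 CPM in N1d, and at 83.1, 100.96, 105.99 and 87.7 CPM in N4d. Its log2 change was -0.08 ± 0.20 in N1d over AP and 0.32 ± 0.20 in N4d over N1d (edgeR adjusted p 0.794 and 0.277). The co-receptor Lrp6 was likewise at 32.4 to 44.97, 38.5 to 59.2 and 24.8 to 41.6 CPM, and passed in neither comparison (edgeR adjusted p 0.250 and 0.111). Fzd9 was at 1.29 to 6.78 CPM in N1d and at 13.9 to 24.8 CPM in AP at 1 h, without overlap, and its change of -2.82 ± 1.06 missed the threshold (edgeR adjusted p 0.0593). Fzd7 reached 7.48 to 19.0 CPM in AP at 1 h and stayed at or under 4.00 CPM in N1d and N4d. Fzd5 and Fzd6 were at or under 5.75 CPM in these sums, and Lrp5 at or under 3.97 CPM.

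Dvl1, Dvl2 and Dvl3, the Dishevelled proteins that pass the signal on from Frizzled, passed in none of the comparisons. Their means in the same AP, N1d and N4d sums were 17.3 ± 6.35, 26.6 ± 6.34 and 28.9 ± 14.2 CPM for Dvl1 (SD, n = 4 days), 27.7 ± 10.8, 22.7 ± 9.66 and 17.2 ± 4.47 CPM for Dvl2, and 6.74 ± 3.30, 12.5 ± 9.57 and 12.2 ± 10.7 CPM for Dvl3. Naked genes encode proteins that bind Dishevelled and dampen the signal, and they moved more. Nkd1 was at 1.21, 2.59, 0.536 and 0.173 CPM in N4d at 96 h and at 41.7, 33.2, 15.1 and 5.20 CPM in N1d at 24 h. The N4d sums all lay under the N1d sums, a log2 change of -4.38 ± 0.81 (edgeR adjusted p 0.00385; -5.06 without the N4d sum of E13 and -3.42 with the AP, BP, N1d and N4d classes pooled at each time). Nkd1 passed the filter of 10 CPM across times only with its N1d sums, so that call is read as a description of levels.

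Set against these N1d values of Nkd1, AP at 24 h had 0.569, 1.47, 4.18 and 0.531 CPM, all lower. The log2 change in N1d over AP was 3.92 ± 0.89 (edgeR adjusted p 0.0170). It was 4.60 without the AP sum of E14 and 4.61 without the N1d sum of E14, and it did not pass without the N1d sum of E12 (0.0560) or E13 (0.0658), nor with sums of any number of cells (0.0596). Against AP at 1 h, with 4.06, 12.2, 2.51 and 7.53 CPM, the N1d range overlaps and the change of 1.47 ± 0.71 did not pass (edgeR adjusted p 0.135). The share of cells with a read was 27.5% in N1d and 14.3% in AP at 24 h, or 20.2% and 5.41% after thinning.

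Nkd2 was at 5.26, 11.3, 20.3 and 8.02 CPM in N4d at 96 h and at 3.65, 0.0672, 0 and 0.0185 CPM in N1d at 24 h. It had 2815 reads in 70 of 693 N4d cells and reads in only 5 of 633 N1d cells. N4d was called higher (edgeR adjusted p 0.00776), and the fitted log2 change of 7.06 ± 1.39 depended on the line on day, since without a day term it was 3.61 with an edgeR adjusted p of 0.320, and with the AP, BP, N1d and N4d classes pooled at each time it was 2.81 (0.193). Leaving out 1 N1d sum in turn gave 6.15 to 10.1. Nkd2 passed the filter of 10 CPM across times only with its N4d sums of E13 and E14 and its AP sum of E12. That call is therefore read as a description of levels. The locus (chromosome 13, 73818534 to 73847631, - strand) overlaps 1 other annotated gene.

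Beta-catenin and Apc went opposite ways as neurons aged. Ctnnb1, which encodes beta-catenin, was at 283.6, 262.2, 293.7 and 483 CPM in N4d at 96 h and at 600, 702, 710 and 614 CPM in N1d at 24 h. It fell by 1.01 ± 0.14 on the log2 scale (edgeR adjusted p 8.96e-04), with no overlap. In AP at 1 h it was at 688, 799, 968 and 990 CPM, and N1d over AP missed the threshold (-0.39 ± 0.14, edgeR adjusted p 0.0528). Apc, the scaffold that also binds microtubules in neurons, was at 671, 606, 852 and 763 CPM in N4d at 96 h and at 178.6, 217.9, 272.1 and 303 CPM in N1d. It rose by 1.61 ± 0.17 on the log2 scale (edgeR adjusted p 1.23e-04). Over AP at 1 h, with 93.4, 117.5, 203.03 and 149.4 CPM, N1d was higher by 0.78 ± 0.17 (edgeR adjusted p 0.00388), and N1d of E12 overlaps AP of E14. Over AP at 24 h, with 49.1, 51.4, 108.1 and 125.8 CPM, it was higher by 1.60 ± 0.35 without overlap (edgeR adjusted p 0.0138; 0.0502 without the N1d sum of E14 and 0.0590 without that of E15). After thinning, reads of Apc were in 55.1% of AP cells at 1 h, 71.97% of N1d cells and 97.5% of N4d cells (67.6%, 81.2% and 98.4% before).

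Axin1 and Axin2, the limiting scaffold of the complex and its inducible copy, did not pass in any comparison. Axin1 was at 24.0 to 55.2 CPM in AP at 1 h, 30.5 to 43.7 CPM in N1d and 21.4 to 34.1 CPM in N4d. Axin2 was at 13.4, 16.4, 3.92 and 23.7 CPM in AP at 1 h, 2.33 to 11.2 CPM in N1d and 1.77 to 9.40 CPM in N4d, with reads in 21.0%, 7.90% and 6.06% of cells (16.1%, 5.71% and 3.11% after thinning). The log2 change of Axin2 was -1.16 ± 0.69 in N1d over AP (edgeR adjusted p 0.222).

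Among the nuclear factors, Tcf7l1, best known as a repressor of Wnt target genes in stem cells, had its highest mean in AP at 1 h among the classes tested. It was at 7.83, 5.41, 2.10 and 2.66 CPM in N1d at 24 h and at 64.2, 65.6, 74.2 and 29.2 CPM in AP at 1 h. The N1d values lay below all AP values, and the log2 change was -3.84 ± 0.82 (edgeR adjusted p 0.00397). Tcf7l1 passed the filter of 10 CPM across times through its AP sums alone, so that call is read as a description of levels. Within 24 h AP was at 0.759, 32.8, 17.9 and 21.8 CPM, with E12 below all 4 N1d sums, and the change of -2.39 ± 1.27 did not pass (edgeR adjusted p 0.257). N4d at 96 h was at 0, 0.0250, 1.50 and 0.421 CPM, a change of -4.08 ± 0.89 from N1d (edgeR adjusted p 0.00891). That value was -6.34 without the N4d sum of E14, -3.21 with no day term and -3.25 with the AP, BP, N1d and N4d classes pooled at each time, and the call was lost without that of E12 (0.0995) and with limma on the mean of cell CPM (limma adjusted p 0.0524).

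Tcf7l2 and Lef1 were lower in N4d than in N1d. Tcf7l2 was at 0.107, 1.52, 0.0158 and 0.693 CPM in N4d at 96 h and at 4.33, 13.9, 4.72 and 21.9 CPM in N1d at 24 h. No N4d sum reached an N1d sum, and the log2 change was -4.06 ± 1.05 (edgeR adjusted p 0.0194). It was -5.80 without the N4d sum of E13 and -2.73 with these classes pooled at each time, and the call was lost without the N1d sum of E15 (0.0816), the N4d sum of E12 (0.0867) or that of E15 (0.129). In AP at 1 h Tcf7l2 was at 25.3 to 38.6 CPM, and N1d over AP did not pass (-1.78 ± 0.94, edgeR adjusted p 0.169). Lef1, the factor of the promoter window shown above, was at 3.96, 0.425, 0.189 and 0.445 CPM in N4d at 96 h and at 18.7, 11.4, 13.6 and 5.30 CPM in N1d at 24 h. The N4d values lay below the N1d values, with a log2 change of -3.85 ± 0.72 (edgeR adjusted p 0.00423; -4.97 without the N4d sum of E12, -5.10 without that of E15 and -3.26 with no day term). Tcf7 stayed at or under 8.54 CPM in AP at 1 h, N1d and N4d.

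The 24 h samples also held basal progenitors, the intermediate cells that divide away from the ventricle. Over AP at 24 h, no tested member was higher in BP at the threshold and 2 were lower (Sfrp1, Fzd8), against 0.903% and 0.517% of 9861 genes. Sfrp1 was at 282.9, 371 and 324 CPM in BP of E12, E13 and E15, all below the 618 CPM of the lowest AP sum, with a log2 change of -1.43 ± 0.16 (edgeR adjusted p 0.00733; 0.0668 without the BP sum of E13). Fzd8 was at 28.2, 17.5 and 32.5 CPM in BP, also below all AP sums, with a change of -2.40 ± 0.47 (edgeR adjusted p 0.0431). That call was lost in 10 of 11 fits that each left out 1 sum, with an edgeR adjusted p of 0.0656 to 0.243, and held without the AP sum of E15. It was also lost with no filter, a filter of 1 CPM, sums of any number of cells and sums of at least 20 cells (edgeR adjusted p 0.0694 to 0.104). Nkd1, at 44.03, 27.9 and 14.5 CPM in BP, lay above all AP sums of 24 h and missed the threshold (4.58 ± 0.99, edgeR adjusted p 0.0620). Wnt7b, at 115.3, 110.7 and 49.4 CPM in BP, did so as well (2.57 ± 0.59, edgeR adjusted p 0.0804), and 51.2% of BP cells and 27.0% of AP cells had a Wnt7b read after thinning (76.2% and 49.1% before). DESeq2 called both.

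At 96 h, interneurons, which enter the cortex from the ventral forebrain, were set against the N4d neurons of the same samples. Of 16 members tested, edgeR called 0, against 1.2% of 9362 genes that were higher and 1.05% that were lower. At an unadjusted p under 0.05 there were 5 members, and the share of all genes at that p was not counted. DESeq2 called 5 (Wnt5a, Rspo3, Wnt7a, Apc, Nkd2), and the share of all genes it called was not counted. The call of Wnt5a among them is not used, for the reason given next. Wnt5a was at 26.4, 57.4, 5.00 and 33.0 CPM in IN and at 3.42, 0.912, 0.678 and 0.148 CPM in N4d, without overlap. It passed the filter of 10 CPM in 3 sums through IN sums alone, so its levels are given as a description and its tests are not used. Reads were in 11.3% of IN cells and in 3.17% of N4d cells, or 11.4% and 1.93% after thinning. A single cell gave 15.1% to 98.7% of the Wnt5a reads of an IN sum. Cluster IN.2 was at 64.01 CPM and IN.1 at 4.23 CPM. Wnt7a was at 120.9, 19.4, 52.5 and 104.1 CPM in IN and at 29.5, 8.27, 11.1 and 2.60 CPM in N4d (2.62 ± 0.70, edgeR adjusted p 0.105), higher in IN on each day, with the lowest IN sum below the highest N4d sum. Rspo3 was at 5.25, 41.6, 0.642 and 0.106 CPM in IN and at 92.1, 57.1, 29.4 and 7.90 CPM in N4d, higher in N4d on each day (-3.97 ± 1.02, edgeR adjusted p 0.0957). It passed the filter only with its N4d sums. A single cell gave 40.0% to 100% of the Rspo3 reads of an IN sum and 9.78% to 74.3% of those of an N4d sum. For Wnt7a these shares were 18.2% to 87.4% and 25.7% to 37.1%. Apc, at 808, 791, 1105 and 893 CPM in IN, was higher than N4d on each day, with the E12 and E13 sums of IN below the N4d sum of E14, and the change of 0.36 ± 0.12 did not pass (edgeR adjusted p 0.247).

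**Figure D3:**
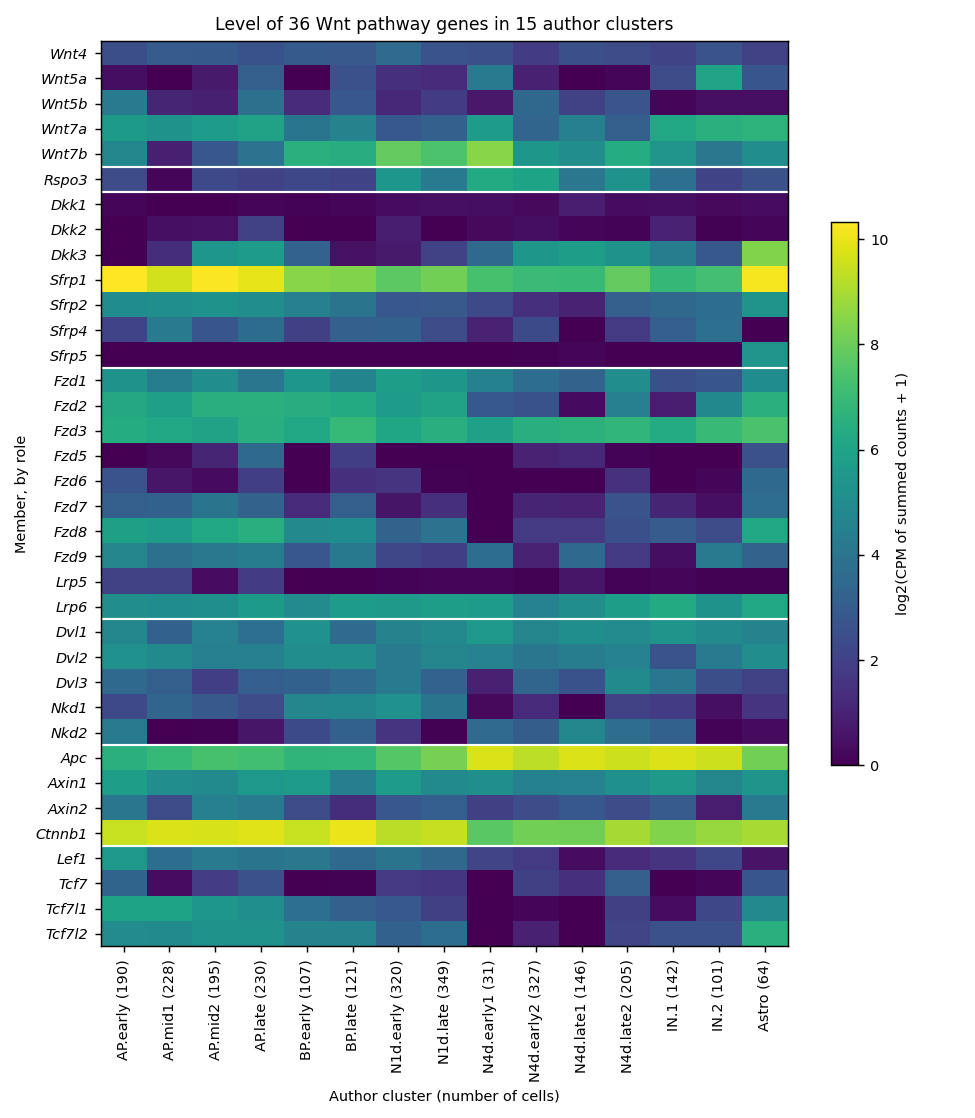
Level of each of the 36 members, as log2(CPM of summed counts + 1), in the 15 clusters of the authors with their number of cells, members grouped by role between white lines. Sfrp1 is brightest in the AP clusters and Astro, Sfrp5 is bright in Astro, Wnt5a in IN.2 and Wnt7b in the N1d clusters and N4d.early1.

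Injection day asked whether the pathway shifts as neurogenesis goes on. A straight line on day in each class, in log2 units per day, called 1 member in AP (Nkd2, lower with day), against 0.226% of genes lower and 0.765% higher. It called 0 in N1d and 0 in N4d, where 0.206% and 0.0294% of genes were higher and 0.177% and 0.0196% lower. At an unadjusted p under 0.05 these counts were 3, 4 and 7 of 24, and the share of all genes at that p was not counted. The mean of the 3 slopes called Nkd2 again, against 0.284% of genes lower and 0.726% higher. A difference between the slopes was called by edgeR for 0 members and for 0.216% of genes. It was at an unadjusted p under 0.05 for 3 members and called by DESeq2 for 2, with no share over all genes counted for either.

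The Nkd2 call rested on few cells. In AP at 1 h all 1139 reads fell in the E12 sum, in 18 cells, and 1 cell gave 48.8% of them. The AP cells of E13, E14 and E15 held no read, so no slope is given as a size, and in the AP cells of 24 h the few reads were at E14 and E15 (0.199 and 1.92 CPM). The edgeR adjusted p was 0.0236 for AP and 0.0244 for the mean of slopes. They were 0.395 and 0.875 with run code as a block, 0.285 and 0.393 with limma on the mean of cell CPM, and 0.0781 and 0.0599 with no filter on low counts. The AP call was lost with a filter of 1 CPM (0.0508), and that of the mean of slopes without the N1d sum of E12 (0.0911) or the N4d sum of E12 (0.0726) or E15 (0.112). Without the AP sum of E12, or the N4d sum of E13 or E14, Nkd2 did not pass the filter on low counts and could not be fitted.

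Dkk3 had a higher value on each later day in AP at 1 h (0, 7.58, 10.2 and 46.99 CPM for E12 to E15) and in N1d, and also in the AP sums of 24 h, which the fit did not use (3.60, 5.87, 25.3 and 109.4 CPM). The mean of its 3 slopes, 1.51 ± 0.38 per day, missed the threshold (edgeR adjusted p 0.0827), and DESeq2 called it (adjusted p 1.47e-05). Over 19 alternative fits, that p went from 1.47e-05 to 0.875 and was under 0.05 in 4. Lef1 was at 48.1, 17.3, 16.1 and 19.9 CPM in AP at 1 h and highest at E12 in N1d and N4d as well. Of the Lef1 reads of N4d at E12, 97.7% came from 1 cell. The mean slope of Lef1, -0.67 ± 0.22, did not pass (edgeR adjusted p 0.167). Rspo3 was lowest at E15 in N1d and N4d (mean slope -0.95 ± 0.42, edgeR adjusted p 0.313), and Nkd1 was lower on each later day in N1d (slope -1.01 ± 0.50, edgeR adjusted p 0.427). Apc was higher at E15 than at E12 in all 3 classes (mean slope 0.21 ± 0.06, edgeR adjusted p 0.126). At 24 h and 96 h E12 and E13 shared a run, and E14 and E15 another, so early and late days cannot be told apart from runs there.

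**Figure D4:**
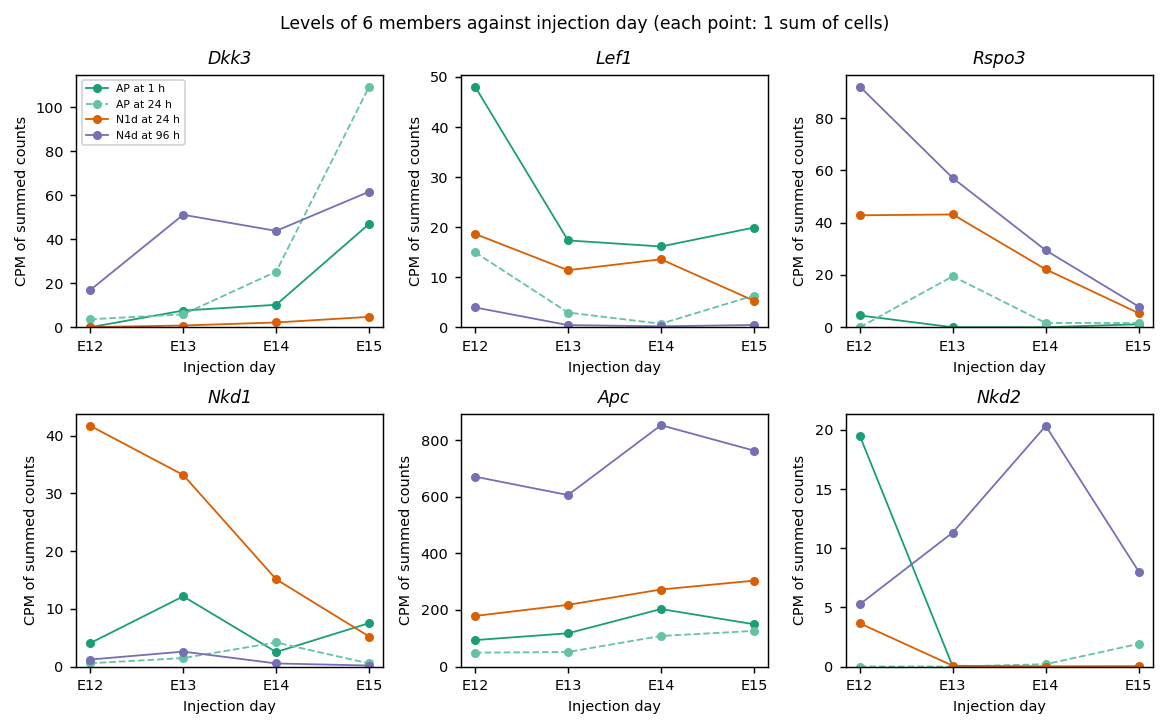
CPM of summed counts of 6 members against injection day, with 1 line per class and each point 1 sum of cells. Dkk3 is highest at E15 in both AP lines, at 46.99 CPM at 1 h and 109.4 CPM at 24 h, Rspo3 and Nkd1 are lower at E15 than at E12 in N1d, and the AP point of Nkd2 at E12 stands alone.

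Astrocytes were nearly all in 1 condition, E15 at 96 h, which held 54 of 64 Astro cells, so their values stand without a replicate and without a test. In these 54 cells Dkk3 was at 382 CPM and Sfrp1 at 1164 CPM, against 61.6 and 194.2 CPM in the 130 N4d cells of the same condition. Dkk3 reads were in 45 of 54 Astro cells (83.3%, 95% Clopper-Pearson interval 70.7 to 92.1) and in 59 of 130 N4d cells (45.4%, 36.6 to 54.3). Tcf7l2 was at 110 CPM in Astro and at 0.693 CPM in N4d, with reads in 48.1% (34.3 to 62.2) and 11.5% (6.60 to 18.3) of cells. Sfrp5, a further Frizzled-related antagonist, was at 47.97 CPM in Astro, with reads in 15 of 54 cells (27.8%, 16.5 to 41.6) and 36.5% of its 868 reads from 1 cell. It was at 0.272 CPM in N4d of the same condition, and its 0 of 35 IN cells allow a share of up to 8.57% by the limit of 3 counts, or 10.0% by the upper end of the interval. These intervals and limits cover counting error only.

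Of the members lower in N1d than in AP, Wnt7a was at 103.3 CPM in Astro, 104.1 CPM in IN and 2.60 CPM in N4d of E15. Between Astro and N4d of that condition, Fzd8 was at 61.5 and 3.64 CPM, Tcf7l1 at 33.0 and 0.421 CPM, and Fzd2 at 85.4 and 14.7 CPM. Apc was lower in Astro, at 280 CPM against 763 CPM in N4d. Lef1 was at 0.0553 CPM, a single read, in Astro, and Fzd9 had reads in 1 of 54 Astro cells. Summed markers of astrocytes were at 8986 CPM in Astro and at 68.8 to 436 CPM in the N4d sums, and 5 markers of meninges and vessels of a list of 9 were at 212.1 CPM in Astro and at 2.76 to 7.55 CPM in N4d. Their part in the Wnt values was not tested.

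**Figure D5:**
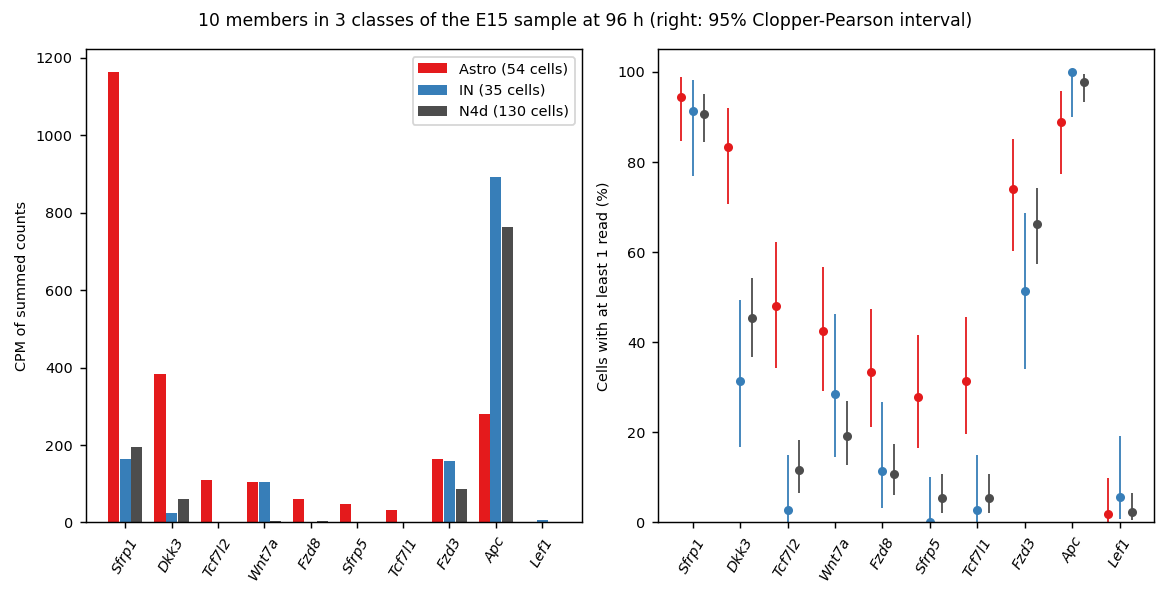
For 10 members in the E15 sample at 96 h, CPM of summed counts (left, bars from 0) and percent of cells with at least 1 read with its 95% Clopper-Pearson interval (right) in Astro, IN and N4d cells. Sfrp1, Dkk3, Tcf7l2, Fzd8, Sfrp5 and Tcf7l1 are higher in Astro than in IN and N4d, and Apc is lower.

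Other genes of the pathway were followed with 7 lists of 75 genes in all. In N1d at 24 h over AP at 1 h, 12 of 52 tested were higher and 11 lower, against 17.3% and 16.5% of all genes. In N4d over N1d 5 were higher and 9 lower, against 10.4% and 10.2%, and in N1d over AP at 24 h 6 and 4 of 49, against 7.08% and 7.58%. BP over AP gave 1 higher of 49, against 0.903%, and IN over N4d gave 2 higher and 1 lower of 48, against 1.2% and 1.05%. Of 17 other genes of the destruction complex, 5 were higher in N1d over AP at 1 h, 3 in N4d over N1d and 2 in N1d over AP at 24 h, and most did not pass. Those called were led in N1d over AP at 1 h by Apc2, an Apc relative of neurons (3.16 ± 0.34, edgeR adjusted p 3.49e-05), and the casein kinase Csnk1e (1.23 ± 0.13, edgeR adjusted p 4.02e-05), both called at 24 h too (3.21 ± 0.55 and 0.89 ± 0.23, edgeR adjusted p 0.00436 and 0.0267), and in N4d by Tnks (1.36 ± 0.27, edgeR adjusted p 0.00547) and Csnk1a1 (0.48 ± 0.11, edgeR adjusted p 0.0113). Of 2 genes of Wnt secretion, Porcn, the acyltransferase of Wnt proteins, was higher in N1d over AP at 1 h (2.67 ± 0.62, edgeR adjusted p 0.00619) and did not pass within 24 h (0.78 ± 0.93, edgeR adjusted p 0.642). Wls, their carrier to the surface, was lower in N1d over AP at 1 h (-4.42 ± 0.94, edgeR adjusted p 0.00379) and was not tested within 24 h. Its N4d sums were all under 10 CPM, and it passed the filter across times only with its AP sums. That call in N1d over AP is therefore read as a description of levels. Wls was at 23.8, 110.6, 140.6 and 80.3 CPM in IN and at 0.0713, 3.27, 9.32 and 4.08 CPM in N4d (5.17 ± 0.74, edgeR adjusted p 0.00440). Wls passed the filter of 10 CPM there through IN sums alone, so that call is read as a description of levels.

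Of 9 other tested genes known as targets of beta-catenin signalling, 3 were higher and 6 lower in N1d over AP at 1 h. The transcriptional regulator Id2 was higher (2.63 ± 0.20, edgeR adjusted p 2.72e-06) and the cyclin Ccnd2 lower (-2.68 ± 0.27, edgeR adjusted p 2.18e-05). Within 24 h, where cells shared runs, 3 passed: Id2 was higher (1.77 ± 0.23, edgeR adjusted p 9.08e-04), and Ccnd2 (-2.05 ± 0.23, edgeR adjusted p 4.30e-04) and Ccnd1 (-2.51 ± 0.62, edgeR adjusted p 0.0251) were lower. Among the others of the 9 tested there, Tnfrsf19, Emx2, Neurog2, Myc and Mycn did not pass (edgeR adjusted p 0.0748 to 0.513 for those named). In N4d over N1d, 0 were higher and 4 lower, led by Neurog2 (-2.27 ± 0.30, edgeR adjusted p 4.93e-04) and Ccnd2 (-1.25 ± 0.26, edgeR adjusted p 0.00668). In IN over N4d Id2 was lower (-2.28 ± 0.19, edgeR adjusted p 1.79e-04) and Sp8, an interneuron factor, higher (3.39 ± 0.72, edgeR adjusted p 0.0415). Of 6 tested planar polarity genes, 2 were higher in N1d over AP at 1 h, Celsr3 (5.80 ± 0.49, edgeR adjusted p 6.48e-06) and Celsr2 (1.09 ± 0.21, edgeR adjusted p 0.00231). In N4d over N1d 1 was higher, Daam1 (1.42 ± 0.17, edgeR adjusted p 2.83e-04), and 3 were lower, led by Celsr1 (-3.46 ± 0.37, edgeR adjusted p 1.40e-04). Within 24 h, 3 of these genes were higher in N1d over AP, among them Celsr3 (5.13 ± 0.67, edgeR adjusted p 9.93e-04) and Daam1 (1.56 ± 0.32, edgeR adjusted p 0.0112), and 1 lower, Celsr1. Ankrd6 was the 1 gene of the lists called for the mean of slopes (0.48 ± 0.09 per day, edgeR adjusted p 0.0264). Celsr3 was also higher in BP over AP (3.93 ± 0.69, edgeR adjusted p 0.0287).

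Of 5 tested genes of receptor turnover and inhibition, Draxin was higher in N1d over AP at 1 h (2.21 ± 0.55, edgeR adjusted p 0.00939), and Znrf3, a ligase that removes Frizzled, was lower (-3.33 ± 0.88, edgeR adjusted p 0.0129), as was Shisa2. Within 24 h Draxin (1.20 ± 0.54, edgeR adjusted p 0.179) and Shisa2 (-1.21 ± 0.45, edgeR adjusted p 0.110) did not pass, and Znrf3 was not tested. In N4d, Shisa2 (-1.57 ± 0.50, edgeR adjusted p 0.0450) and Frzb were lower than in N1d and Tmem67 higher. Frzb was listed with 0 reads in all N4d sums and at 0 to 2.84 CPM in N1d, so no fold is given. Of 3 other receptors, the glypican Gpc4 was lower in N1d over AP at 1 h (-2.50 ± 0.33, edgeR adjusted p 1.80e-04) and within 24 h (-2.15 ± 0.58, edgeR adjusted p 0.0357). Of 10 tested nuclear cofactors the co-repressor Tle1 was lower in N1d over AP at 1 h (-0.73 ± 0.20, edgeR adjusted p 0.0157) and did not pass within 24 h (-0.19 ± 0.58, edgeR adjusted p 0.875).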

How the data were processed

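The table deposited by the authors gives unnormalized read counts, a row per gene and a column per cell, and cells carry the authors' cluster names. Per the submitters' processing notes, TopHat2 2.0.13, UMI-tools and GRCm38 were used, with no role given. The labels' protocol names a SMART-seq v4 kit, so whether the deposited counts are of reads or of molecules cannot be told; they are called reads here, and levels per kb of exon hold only for reads along the whole transcript. The counter, annotation and strand setting are not given in the sources used here. Counts of single cells ran from 13191 to 1312820 with a median of 328910.

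Counts were summed per class, injection day and collection time over at least 10 cells. Genes with at least 10 CPM in 3 or more sums were tested with edgeR 4.0.16 (quasi-likelihood test, TMM, Benjamini-Hochberg over all genes, threshold 0.05, R 4.3.3). Across times, 12 sums were fitted with a level and a line on injection day per class (6 residual degrees of freedom, biological coefficient of variation 46.3%). Within 24 h (11 sums, 67.5%) and within 96 h (8 sums, 61.5%), injection day was a block, since the classes of a day shared a run code. A standard error is the absolute log2 change divided by the square root of F. DESeq2 1.42.0 and limma 3.58.1, on log2(mean cell CPM + 1), were alternatives. The edgeR fits were tested on simulated counts.

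The labels name no animals, so p-values measure only the spread between sums, which may be technical. Shares of cells with a read were repeated with cells of at least 100000 counts thinned to that number. Intervals (95% Clopper-Pearson) and the limit that a count of 0 allows (3 counts) cover counting error only, as reads are not independent molecules. All members are accounted for by role. Every member past the threshold is named with its values, and of the other pathway genes the 2 with the smallest p per list among those called. The members and lists were chosen with earlier results of these data known.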

Additional observations from a re-analysis of the deposited data

Results flagged for a closer look

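Of 41 groups of 4 sums examined for a value that stands apart (gap over range above Dixon's 0.829), 4 had one, and chance flags about 1 in 20. In N4d at 96 h, Fzd2 at E15 was at 14.7 CPM and the other days at 4.81 to 6.44 CPM, Ctnnb1 at E15 was at 483 CPM and the others at 262.2 to 293.7 CPM, and Lef1 at E12 was at 3.96 CPM and the others at 0.189 to 0.445 CPM. In N1d at 24 h, Nkd2 at E12 was at 3.65 CPM and the other days at 0 to 0.0672 CPM. A single cell gave 97.7% of the Lef1 reads and 92.4% of the Nkd2 reads of these flagged sums. For Fzd2 and Ctnnb1 the share was 32.6% and 4.63%.

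Some members were higher in sums outside the tests than in all sums of the tests. In the 54 Astro cells of E15 at 96 h, Sfrp5 was at 47.97 CPM (at most 0.272 CPM in the sums tested), Dkk3 at 382 CPM (at most 109.4), Tcf7l2 at 110 CPM (at most 43.3) and Fzd6 at 12.3 CPM (at most 5.75), with 51.1% of the Fzd6 reads from 1 cell. Tcf7 was at 23.0 CPM in the 13 N4d cells of E15 at 1 h, with all reads from 1 cell, and at most 8.54 CPM in the sums tested. These values have no replicate.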

How the results depend on the processing

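Refits of the 30 called member values numbered 589, of which 524 kept the call and direction, 64 lost the call and 1 reversed, Dkk3 in N1d over AP at 1 h, at 0.24 with the AP, BP, N1d and N4d classes pooled at each time. DESeq2 called 2 members for the AP slope, 2 for the N1d slope, 1 for the N4d slope, 3 for the mean of slopes, 2 for the difference between slopes, 4 in BP over AP, 10 in N1d over AP at 24 h and 5 in IN over N4d. Limma on the mean of cell CPM called 13 in N1d over AP at 1 h, 2 for the mean of slopes and 4 in BP over AP. With no filter, 0 members were called for the AP slope, 0 for the mean of slopes and 1 in BP over AP, and with a filter of 1 CPM 0 for the AP slope and 1 in BP over AP. These pooled classes gave 5 in N1d over AP at 1 h, and BP over AP gave 1 with all sums and 1 with sums of at least 20 cells. With run code as a block, the AP slope and the mean of slopes each had 0. Without the injection-day block, 3 members were called in BP over AP, 6 in N1d over AP at 24 h and 0 in IN over N4d. Leaving out 1 sum in turn gave 7 to 9 calls in N1d over AP at 1 h, 8 to 12 in N4d over N1d, 4 to 8 in N1d over AP at 24 h, 0 to 2 in BP over AP, 0 to 1 in IN over N4d, 0 to 2 for the AP slope, 0 to 0 for N1d, 0 to 1 for N4d, 0 to 3 for the mean and 0 to 1 for the difference. The DESeq2 calls in IN over N4d include Wnt5a, which passed the filter through IN sums alone. The share of all genes called in these refits was not counted. The causes were not tested. AP sums at 24 h held 14 to 44 cells, and the part of cell number in the calls was not tested.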
